A study of Mus musculus with 4 samples.

Results

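The genes described here encode the SR proteins and the heterogeneous nuclear ribonucleoproteins (hnRNPs), the main families of proteins that bind precursor mRNA and steer its splicing. They were taken as all genes on the array whose current symbol begins with Srsf or Hnrnp, which gave 29 of the 18194 genes that could be named, 10 Srsf and 19 Hnrnp genes. Each gene is represented by its brightest probe set, the one whose log2 signal averaged highest over the arrays. RNA was profiled on Affymetrix mouse genome arrays in 4 populations sorted by flow cytometry from Runx1 Venus/+ ES cells on day 6 of differentiation on OP9 stromal cells. Population 1 was Runx1-/VE-cadherin+/Flk1+, population 2 was Runx1+/VE-cadherin+/CD41-, population 3 was Runx1+/VE-cadherin+/CD41+ and population 4 was Runx1+/VE-cadherin-/CD41+. All 4 populations came from the same CCE-derived line, in which 1 Runx1 allele carries the Venus fluorescent protein under the proximal Runx1 promoter, so that every population was heterozygous for Runx1 and "Runx1+" stands for Venus fluorescence from that promoter. There was 1 array per population, so no difference below has a replicate check or a test, and array and population cannot be told apart. The study's methods also describe a second replicate set on Agilent arrays, which was not used here.

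SR proteins carry RNA recognition motifs and a domain rich in arginine and serine (the RS domain). They bind mostly to exonic enhancer sequences and recruit the spliceosome, and kinases that phosphorylate the RS domain control their entry into the nucleus and their activity. hnRNPs coat nascent transcripts, and many of them bind silencer sequences and oppose the inclusion of exons, so that the balance between the families is a classical determinant of alternative splicing. Both families are expressed in nearly every cell type and have further roles in mRNA export, stability and translation.

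Values are probe set signals, the brightness of a probe set on a linear scale, and differences are log2 ratios of signals, with signals below 100 raised to 100. A signal above 100 in at least 1 population was reached by 28 of the 29 genes, 9 Srsf and 19 Hnrnp genes, and by 9468 of the 18194 genes in all. Srsf12 was the exception, with signals of 1.53, 1.29, 14.2 and 16.1 in populations 1 to 4. Over all 9468 genes the log2 ratios had medians of 0.36 for population 4 over 1, 0.00 for 2 over 1, 0.22 for 3 over 2 and 0.06 for 4 over 3, and the values of the splicing regulators were read against these shifts. Markers fixed for other cell types followed the sort. The summed signal of 14 endothelial genes was 38409, 21390 to 25863 and 2145.3 in population 1, populations 2 and 3, and population 4, respectively. That of 9 erythroid genes was between 1164.2 and 6319 in populations 1 to 3 and was 57971 in population 4. Of 9 measured stromal genes 4 reached a signal of 100, and the summed signal of all 9 lay between 1429.9 and 3239. The ratios of 3' to 5' signals of Gapdh, a measure of RNA integrity, lay between 0.847 and 0.901 on the 4 arrays, and those of beta-actin between 1.28 and 1.39. In sorted bulk samples, fewer cells of a type and less RNA per cell cannot be told apart.

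The 9 Srsf genes were all higher in population 4, the CD41+ cells without VE-cadherin, than in population 1, the Runx1-negative endothelial cells. Their median log2 ratio was 0.68, a 1.61-fold difference, with a range of 0.55 to 1.10, against 0.36 over all genes. Of all genes, 65.0% were higher in population 4 than in population 1. A difference of at least 1.5-fold in favour of population 4 was seen for 8 of the 9 Srsf genes, against 39.6% of all genes, and one of at least 2-fold for 2 of the 9, against 22.4% of all genes. The Srsf genes thus shared a modest difference of similar size, while the share past 2-fold was that of all genes. The count past 1.5-fold rested on the scaling: after centring each array on its median it was 2 of 9, or 22.2%, against 28.1% of all genes, and after quantile normalisation 2 of 9 against 29.2%. The Srsf median stayed above that of all genes, with 0.39 against 0.10 and 0.43 against 0.12. The 19 Hnrnp genes had a median of 0.46 with a range of -0.07 to 0.98, which overlapped that of the Srsf genes. Of these, 18 were higher in population 4 (11 after centring), 6 by at least 1.5-fold (1 after centring) and 0 by at least 2-fold. The counts past 2-fold followed the scaling, with 0 Srsf and 0 Hnrnp genes against 14.4% of all genes after centring, and 5 of each against 34.6% after scaling on the hybridisation controls.

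**Figure D1:**
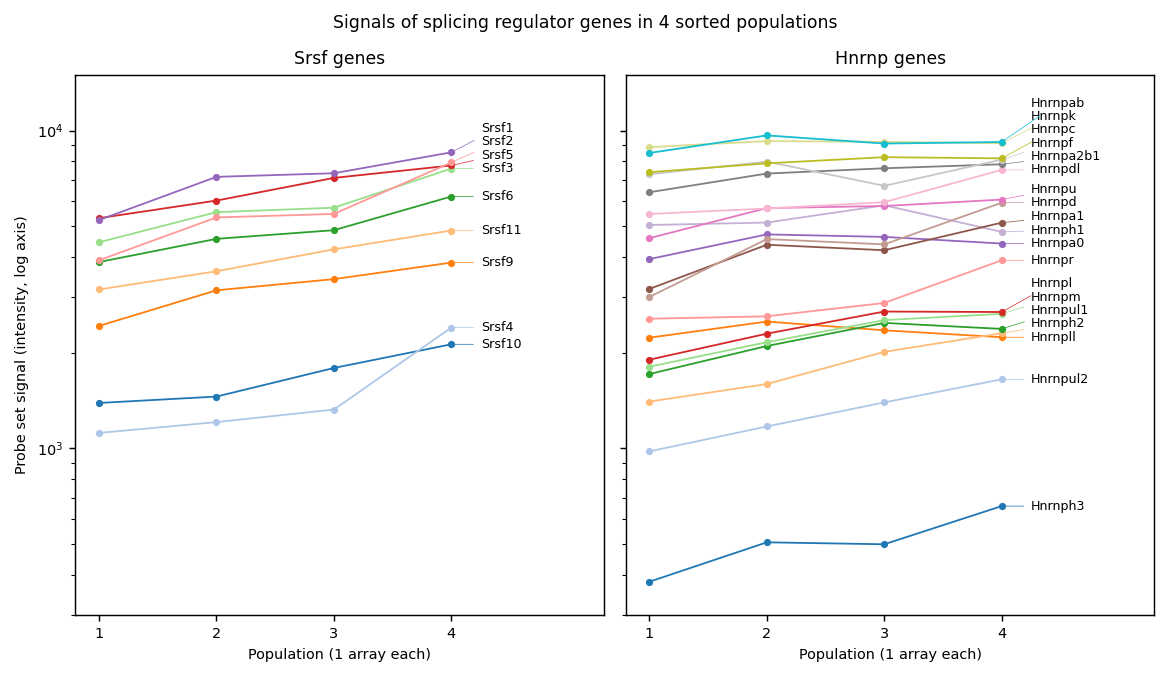
Signals of the 9 Srsf genes (left) and 19 Hnrnp genes (right) above 100 in populations 1 to 4, with 1 array and 1 point per population and a log axis. Lines join the points of 1 gene and follow its course only, since signals of different probe sets are not comparable. All 9 Srsf lines end highest in population 4, whereas the Hnrnp lines include several that are flat.

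Srsf4 and Srsf2 had the largest ratios among the SR proteins. Srsf4 encodes a large SR protein with a pair of RNA recognition domains and a long RS domain. Its signal was 1118.1, 1209.4, 1324.3 and 2398.0 in populations 1 to 4, so that populations 1 to 3 lay close together and population 4 stood apart. The log2 ratio of population 4 over 1 was 1.10, of which 0.86 fell between populations 3 and 4. Srsf2 (SC35), an SR protein with 1 RNA recognition motif that stays in nuclear speckles, had signals of 3905, 5327, 5464 and 7932. It was higher in population 2 than in 1 and again in population 4 than in 3, with near-equal signals in populations 2 and 3, and its log2 ratio of population 4 over 1 was 1.02. Srsf3, the smallest SR protein and an adaptor for mRNA export, had signals of 4450.0, 5536, 5716 and 7589.9 and a log2 ratio of 0.77. The course of Srsf3 resembled that of Srsf2, with most of the difference before population 2 and after population 3.

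Srsf1 (ASF/SF2), the founding SR protein, had signals of 5226, 7147, 7337 and 8537. Its largest step was that from population 1 to 2, with a log2 ratio of 0.45, and the ratio of population 4 over 1 was 0.71. Srsf6 (SRp55), which like Srsf4 and Srsf5 has a pair of RNA recognition domains, had signals of 3857, 4561, 4857 and 6199, and Srsf9 (SRp30c), a short relative of Srsf1, had 2427, 3142, 3407 and 3840.1. Both were highest in population 4, with log2 ratios over population 1 of 0.68 for Srsf6 and 0.66 for Srsf9. Srsf5 (SRp40) had signals of 5299, 6019, 7094 and 7761, and with a log2 ratio of 0.55 it was the Srsf gene with the smallest difference. Srsf10 (SRp38), which represses splicing when it is dephosphorylated, had 1389.4, 1455.0, 1789.9 and 2125.0, and Srsf11 (p54) had 3161, 3607, 4227 and 4846. For both the log2 ratio of population 4 over 1 lay close to the family median, at 0.61 and 0.62. In the deposited values the difference of Srsf11 was spread evenly over the 3 steps, with ratios of 0.19, 0.23 and 0.20. That of Srsf4 lay mostly in a single step. Less the all-gene medians, the 3 ratios of Srsf11 were 0.19, 0.01 and 0.14, so that the even course rested on the scaling.

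Among the hnRNPs, the largest ratios were those of Hnrnpd, Hnrnph3, Hnrnpul2, Hnrnph2, Hnrnpa1 and Hnrnpr. Hnrnpd (AUF1) encodes a protein that binds AU-rich elements and regulates mRNA decay. Its signals were 2995, 4553, 4383 and 5927, and its log2 ratio of population 4 over 1 was 0.98, just below 2-fold. With 0.60 it also had the largest log2 ratio of population 2 over 1 among all 28 genes. Hnrnpa1, the prototype of the splicing repressors that bind exonic silencers, had signals of 3174, 4371, 4200.3 and 5129 and a log2 ratio of population 4 over 1 of 0.69. Hnrnpd and Hnrnpa1 shared their course, with a higher signal in population 2 than in 1, near-equal signals in populations 2 and 3, and the highest signal in population 4.

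The remaining genes of the A/B and D group differed less. Hnrnpa2b1, which also takes part in the transport of RNA, had signals of 6394, 7320.4, 7606 and 7831 and a log2 ratio of 0.29. Hnrnpdl, the closest relative of Hnrnpd, had 5462, 5684, 5949 and 7519 and a ratio of 0.46. Hnrnpa0, which binds AU-rich elements, had 3939.8, 4711, 4626 and 4409, and Hnrnpab 8497, 9650.0, 9097 and 9203, and both were highest in population 2. Their log2 ratios of population 4 over 1 were 0.16 and 0.12, below the median of all genes. The group thus ran from the largest ratio of the family (Hnrnpd) to ratios below the all-gene shift.

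The F/H group, which binds runs of guanines, was divided in the same way. Hnrnph3 had signals of 380.5, 506.2, 499.1 and 658.2 with a log2 ratio of population 4 over 1 of 0.79, and Hnrnph2 had 1403.5, 1593.4, 2011.9 and 2302.1 with a ratio of 0.71. Hnrnph1 had signals of 5043, 5132, 5817 and 4799, and by the brightest probe sets was the only one of the 28 genes with a lower signal in population 4 than in population 1 (log2 ratio -0.07). Its other probe set had 200.9, 175.1, 396.0 and 309.3, with a log2 ratio of 0.62, so that the sign was not shared by the probe sets of Hnrnph1. Hnrnpf had 7283, 7982, 6697 and 8099 and a log2 ratio of 0.15. Hnrnpf was lowest in population 3, and its log2 ratio of population 3 over 2, -0.25, was the lowest of the family at that step.

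In the U group, whose members associate with the nuclear matrix and chromatin, all 3 genes were higher in population 4 than in population 1. Hnrnpul2 had signals of 978.1, 1171.7, 1395.1 and 1648.9, with a log2 ratio of population 4 over 1 of 0.75. Hnrnpul1 had 1713.2, 2098.8, 2481.4 and 2375.7, and Hnrnpu (SAF-A) 4584, 5701, 5787 and 6063, with ratios of 0.47 and 0.40. Hnrnpul2 was thus higher at each step, whereas Hnrnpu differed mainly between populations 1 and 2. Of the L group, Hnrnpl, which binds CA repeats, had signals of 1900.8, 2295.0, 2693.8 and 2685.0 and a log2 ratio of 0.50. Its relative Hnrnpll, known for the switch of Cd45 isoforms in lymphocytes, had 2229.3, 2505.3, 2351.5 and 2236.7 and a log2 ratio of 0.00. Populations 1 and 4 thus had near-equal Hnrnpll signals, and populations 2 and 3 lay slightly above them.

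The other hnRNPs included some of the flattest genes. Hnrnpk, a protein with KH domains that binds poly(C), had signals of 8865, 9262, 9212 and 9116 and a log2 ratio of population 4 over 1 of 0.04. Hnrnpc, which binds uridine tracts on nascent transcripts, had 7392, 7884, 8242 and 8173 and a ratio of 0.14. Hnrnpr, linked to mRNA transport, had 2557, 2603, 2867 and 3905, so that population 4 stood above the others (log2 ratio 0.61). Hnrnpm, a repressor and activator of exons bound at GU-rich sequence, had 1807.1, 2157.3, 2532.0 and 2649.8 and a ratio of 0.55. Hnrnpk and Hnrnpc had little range over the 4 populations, in contrast to Hnrnpr.

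No gene of either family was lower by 1.5-fold or more in population 4 than in population 1. Of all 9468 genes, 18.3% were lower by this margin and 12.9% by 2-fold or more. A standard deviation of the 4 log2 signals above 1 was reached by 0 of the 28 genes and by 1380 of the 9468 genes, or 14.6%. The study's methods call genes dynamic at a standard deviation above 1 and a level above 100 in at least 1 sample, without naming a scale. On linear signals all 28 and all 9468 genes exceeded this limit, so the log2 scale is a choice made here. Neither scale gave the number of dynamic genes that the study reports, so its own call for the families is not known from these counts. The standard deviations of the 28 genes ran from 0.0282 (Hnrnpk) to 0.501 (Srsf4) with a median of 0.259, against 0.447 over all genes and 0.331 over the 2280 genes with a geometric mean signal above 1000. The values over all genes take in genes with signals below the signal minimum in some populations, which none of the 28 genes had. How far such signals moved the all-gene count and median was not tested. Beside the genes of high signal, with medians of 0.259 and 0.331, the families lay on the flat side of these arrays. Of those 2280 genes, 37.6% were higher in population 4 by 1.5-fold or more and 16.3% were lower by that margin, beside 8 and 0 of the 9 Srsf genes and 6 and 0 of the 19 Hnrnp genes as deposited, where 8 and 6 became 2 and 1 after centring or quantile normalisation.

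The difference did not arise at a single step. From population 1 to 2, where Runx1-Venus is gained within VE-cadherin+ cells, all 9 Srsf and all 19 Hnrnp genes were higher in population 2, against 49.2% of all genes and 65.0% of the genes of high signal. The median log2 ratios were 0.24 and 0.20, against 0.00 over all genes. At this step every gene of both families lay above the all-gene median. Many genes of low signal have a ratio of 0 through the minimum of 100, and the median of the genes of high signal was 0.13, above the ratios of Srsf4 (0.11), Srsf10 (0.07) and several Hnrnp genes. The largest ratios were those of Hnrnpd (0.60), Hnrnpa1 (0.46), Srsf1 (0.45) and Srsf2 (0.45), and the smallest those of Hnrnpr and Hnrnph1 (0.03 each). With other scalings and probe set choices, the 9 Srsf genes gave 9, or 6 of 7 where probe sets shared between transcripts were left out, and the 19 Hnrnp genes gave 14 to 19. The share of all genes under these alternatives ran from 43.6% (hybridisation controls) to 61.6% (poly-A controls).

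From population 2 to 3, where CD41 is gained, all 9 Srsf and 11 of the 19 Hnrnp genes were higher in population 3, against 75.5% of all genes. The medians of 0.12 and 0.06 were below the all-gene median of 0.22, so that relative to it both families were lower. The signs at this step rested on the scaling of the arrays. After centring each array on its median, 0 of 9 Srsf and 1 of 19 Hnrnp genes were higher in population 3, against 41% of all genes, and the medians were -0.19 and -0.25 against -0.01. Scaling on the hybridisation controls gave 9 and 19, against 90.6% of all genes, with medians of 0.49 and 0.43 against 0.57. Under both scalings, as in the deposited values, the family medians lay below that of all genes.

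From population 3 to 4, where VE-cadherin is lost, the 9 Srsf genes were again all higher, whereas 12 of the 19 Hnrnp genes were, against 53.7% of all genes. The Srsf median was 0.25 and the Hnrnp median 0.07, beside 0.06 over all genes. Srsf4 (0.86), Srsf2 (0.54), Hnrnpr (0.45), Hnrnpd (0.44), Srsf3 (0.41) and Hnrnph3 (0.40) had the largest ratios at this step, and Hnrnph1 the lowest (-0.28). The Hnrnp genes at this step were thus spread around the all-gene median, and each of the Srsf genes lay above it.

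**Figure D2:**
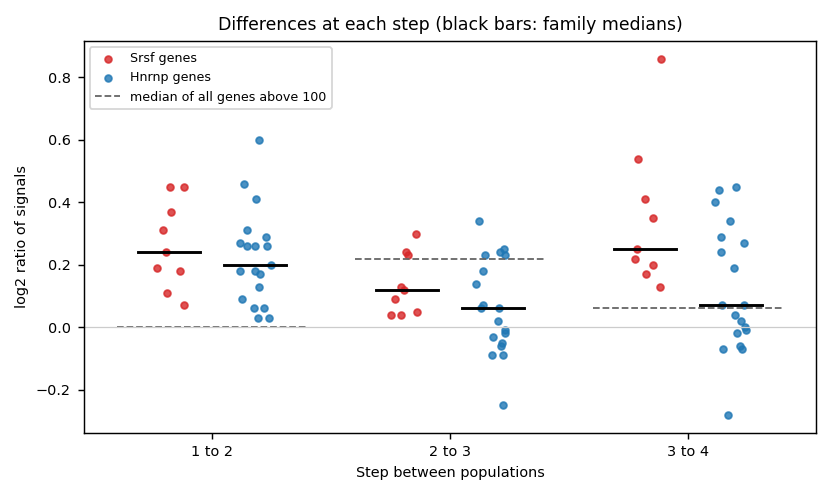
Log2 ratios of signals at the steps from population 1 to 2, 2 to 3 and 3 to 4 for the 9 Srsf and 19 Hnrnp genes, with 1 point per gene, black bars for the family medians and dashed lines for the median of all 9468 genes. All points lie above the dashed line at the step from 1 to 2, where the medians are 0.24 and 0.20 against 0.00, and most lie below it at the step from 2 to 3.

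A signal that was higher at each of the 3 steps was found for all 9 Srsf genes and 7 of the 19 Hnrnp genes, against 24.5% of all genes and 32.4% of the genes of high signal. The highest signal lay in population 4 for 9 Srsf and 11 Hnrnp genes, against 51.8% of all genes. The Hnrnp share was thus close to that of all genes, and that of the Srsf genes above it. Since the step from population 2 to 3 turned with the scaling, so did the count over every step, which was 0 for the Srsf genes and 1 for the Hnrnp genes after centring on the array median, against 8.40% of all genes. After centring, the highest signal lay in population 4 for 8 of the 9 Srsf and 7 of the 19 Hnrnp genes, against 45.3% of all genes.

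In all, 91 probe sets covered the 29 genes, and 20 of these genes were covered more than once. Besides the brightest one of each gene, 55 probe sets of 19 genes had a signal above 100. Of these, 51 were higher in population 4 than in population 1, and 18, from 8 genes, by 2-fold or more. By the brightest probe sets, 65.0% of all genes were higher and 22.4% by 2-fold or more. Such shares over the other probe sets of all genes are not given here. The median log2 ratio of the other probe sets was 0.79 for the 55 and 0.35 over all genes. A larger log2 ratio than that of the brightest probe set of the same gene was found for 46 of the 55, or 83.6%, against 53.2% of 5443 such pairs over all genes and 55.6% of 2696 pairs in which the brightest probe set had a geometric mean above 1000. Thus the brightest probe sets, by which the genes are described above, mostly gave the smaller ratios. The medians were 1.04 for the other and 0.71 for the brightest probe sets over the pairs of the Srsf genes, and 0.65 and 0.35 over those of the Hnrnp genes. The brightest probe sets of the families reached signals of 9650.0, while the highest signal of any probe set lay between 18103 and 20126 on the 4 arrays. Whether the brightness of a probe set limits its ratio was not tested.

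Srsf1 was the clearest case. Another of its probe sets had signals of 369.3, 660.8, 665.3 and 1552.7 in populations 1 to 4, a log2 ratio of population 4 over 1 of 2.07 in place of 0.71. A further one had 1147.3, 2044.5, 2146.3 and 3184.4 (log2 ratio 1.47). The order of the populations was the same on these probe sets, and the size of the difference was not. Hnrnpc, flat by its brightest probe set, had 681.3, 991.5, 930.1 and 1355.0 by another, a log2 ratio of 0.99 against 0.14. Hnrnpf likewise had 1163.9, 1528.4, 1566.5 and 2186.3 by another probe set, with a ratio of 0.91 against 0.15. Hnrnpk kept a small difference on the next brightest probe set, with 6239, 6859.5, 7096 and 6790.4, a log2 ratio of 0.12.

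In Srsf3, Srsf11 and Hnrnpdl, as in Hnrnph1 above, probe sets of 1 gene went opposite ways. Srsf3 had signals of 853.0, 1608.6, 2310.0 and 4244 on one probe set, a log2 ratio of population 4 over 1 of 2.31, and of 488.3, 420.3, 499.4 and 420.3 on another, with a ratio of -0.22. Hnrnpdl had 1240.2, 1622.3, 2173.8 and 3717 on one probe set (log2 ratio 1.58), and 1521.8, 1216.3, 1479.3 and 1190.8 on another (log2 ratio -0.35). A further Hnrnpdl probe set had 513.2, 357.0, 565.1 and 375.0 (log2 ratio -0.45). Srsf11 had 793.7, 1028.5, 1279.4 and 1759.8 on one probe set (log2 ratio 1.15) and 226.1, 185.5, 225.0 and 178.8 on another (log2 ratio -0.34). The 4 probe sets of these 3 genes with lower signals in population 4 shared their course, each being lower in populations 2 and 4 than in populations 1 and 3. Which transcripts these probe sets detect was not analysed here. The median absolute difference in this log2 ratio between the brightest and another probe set of a gene was 0.38 over the splicing regulators and 0.24 over all genes, and the differences within Srsf3 and Hnrnpdl were several times larger.

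**Figure D3:**
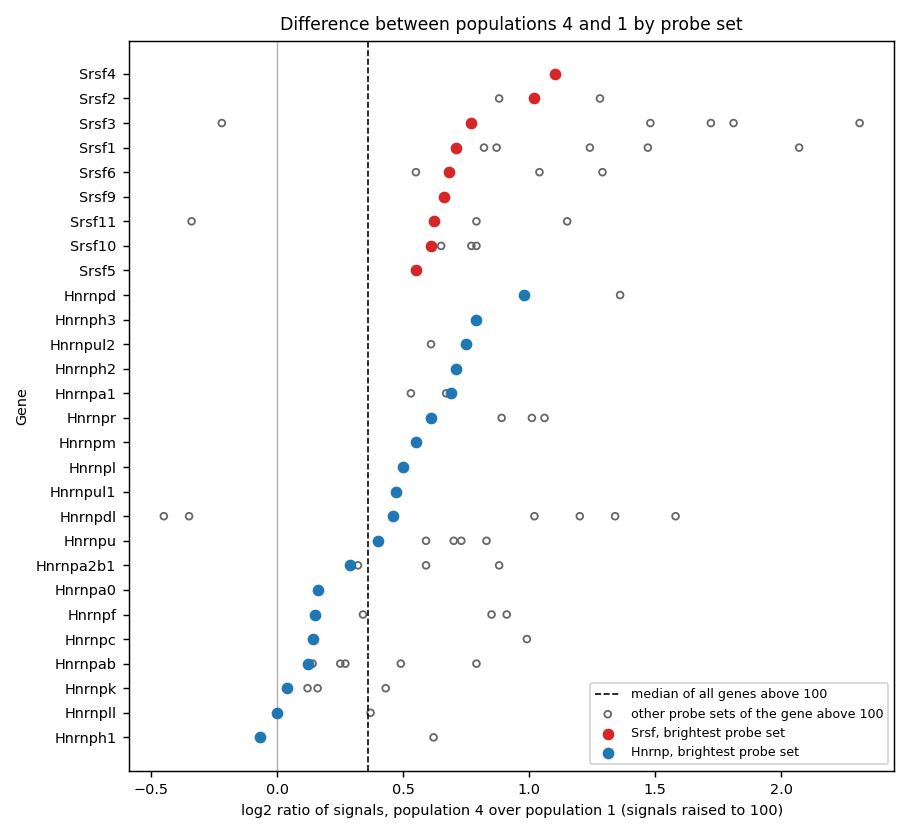
Log2 ratio of signals, population 4 over population 1, for each of the 28 genes, with filled points for the brightest probe set, open circles for other probe sets with a signal above 100 and a dashed line for the median of all genes (0.36). Open circles lie mostly to the right of the filled points, and those left of 0 belong to Srsf3, Srsf11 and Hnrnpdl. The filled point left of 0 is that of Hnrnph1.

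Genes of related function were taken from fixed lists. Of 34 measured genes of the core spliceosome, all were higher in population 4 than in population 1, 26 by at least 1.5-fold and 9 by at least 2-fold. Of all genes, 65.0% were higher in population 4. The share past 2-fold, 26.5%, was close to the 22.4% of all genes, and the share past 1.5-fold, 76.5%, stood beside 39.6%. Shares of this and the following lists are given as deposited only. After centring each array on its median, the share of all genes past 1.5-fold was 28.1%, and the Srsf and Hnrnp counts also fell. The median log2 ratio of the core spliceosome genes was 0.77, above that of both families and the all-gene median of 0.36. The named genes of this list were Lsm6, with signals of 690.8, 1240.9, 1260.1 and 1979.7 (log2 ratio of population 4 over 1 of 1.52), Lsm2 (1.66), Lsm3 (1.45) and the U4/U6 factor Prpf3 (1.42). The ratio of Lsm6 was 1.19 with the mean over probe sets and 0.96 without probe sets shared between transcripts. Lsm2, Lsm3 and Lsm6 belong to the ring of proteins that binds the end of U6 RNA. Of 21 other genes whose proteins have RS domains, all were higher in population 4, 11 by 1.5-fold or more (52.4%) and 6 by 2-fold or more (28.6%), and the median was 0.58. Examples were Bclaf1 with signals of 1296.6, 1751.1, 2134.0 and 3255 (log2 ratio 1.33, and 0.66 with the mean over probe sets), Rsrc1 (1.33), Srek1 (1.25) and U2af1 (1.15), a subunit of the factor that recognises the end of the intron. The ratio of Srek1 was 1.00 with the mean over probe sets.

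The kinases and import factors of SR proteins and the splicing regulators outside the families had smaller medians. Of 11 genes above 100 for SR protein kinases, related enzymes and nuclear import, 1 (9.09%) was past 2-fold in favour of population 4, against 22.4% of all genes. The median log2 ratio of 0.24 lay below that of all genes. The gene past 2-fold was the kinase Prpf4b, with signals of 1238.8, 1792.6, 2338.8 and 2728 (log2 ratio 1.14). Prpf4b was not past 2-fold with the mean over probe sets (0.78) or without probe sets shared between transcripts (0.60). Tnpo3, the importin of SR proteins, had 867.7, 1274.0, 1246.6 and 1658.3 (log2 ratio 0.93), while Dyrk1a and Srpk2 had ratios of 0.48 and 0.44. The ratio of Srpk2 was 0.14 with the mean over probe sets. At the step from population 1 to 2, 4 of these 11 genes, or 36.4%, were higher in population 2, against 49.2% of all genes. Of 32 splicing regulators outside the families, 2 (6.25%) were higher and 3 (9.38%) lower by 2-fold or more in population 4, and the median was 0.28. The shares of all genes were 22.4% higher and 12.9% lower. The muscleblind genes, whose proteins regulate exons that switch during development, were on both sides. Mbnl3 had 629.6, 312.0, 250.3 and 47.3, a difference of at least 6.30-fold with 47.3 raised to 100 (log2 ratio -2.65), and Mbnl1 had 1634.4, 1070.8, 2526 and 5620 (log2 ratio 1.78). With the mean over probe sets, the log2 ratios were -1.49 for Mbnl3 and 2.08 for Mbnl1. Mbnl2, left out by the rule for named genes because 1 of its dim probe sets had a ratio of 0 with signals raised to 100, and named after its values were seen, had 2521, 1847.9, 2628 and 993.6 (log2 ratio -1.34). The other genes named by the rule were the SR-like factor Tra2a, with a log2 ratio of 1.00 (0.27 with the mean over probe sets), and Ilf2, with 0.84. By the brightest probe sets, Mbnl3 and Mbnl1 thus differed more than any SR protein or hnRNP gene.

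Genes of proliferation differed in the same direction as the splicing regulators. The summed signal of 13 such genes was 12384, 27774, 24958 and 49989 in populations 1 to 4, and all 13 were higher in population 4 than in population 1 by 2-fold or more. Their median log2 ratio was 2.11 for population 4 over 1, and 1.44, -0.17 and 1.15 at the 3 steps. As in Srsf2, Srsf3, Hnrnpd and Hnrnpa1, populations 2 and 3 lay close together in the deposited values, with differences before and after. Not all genes of the families shared this course: Hnrnph2 had a log2 ratio of population 3 over 2 of 0.34, Srsf10 of 0.30 and Hnrnpul2 of 0.25. Less the all-gene median, the ratios of population 3 over 2 were -0.19 (Srsf2), -0.18 (Srsf3), -0.28 (Hnrnpd and Hnrnpa1) and -0.39 (proliferation median). The closeness of populations 2 and 3 thus rested on the scaling. The step from population 1 to 2 was the largest for the proliferation genes, Hnrnpd and Hnrnpa1, and that from 3 to 4 for Srsf2 and Srsf3. The part of proliferation, and that of the erythroid and endothelial genes given above, in the values of the splicing regulators was not tested.

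**Figure D4:**
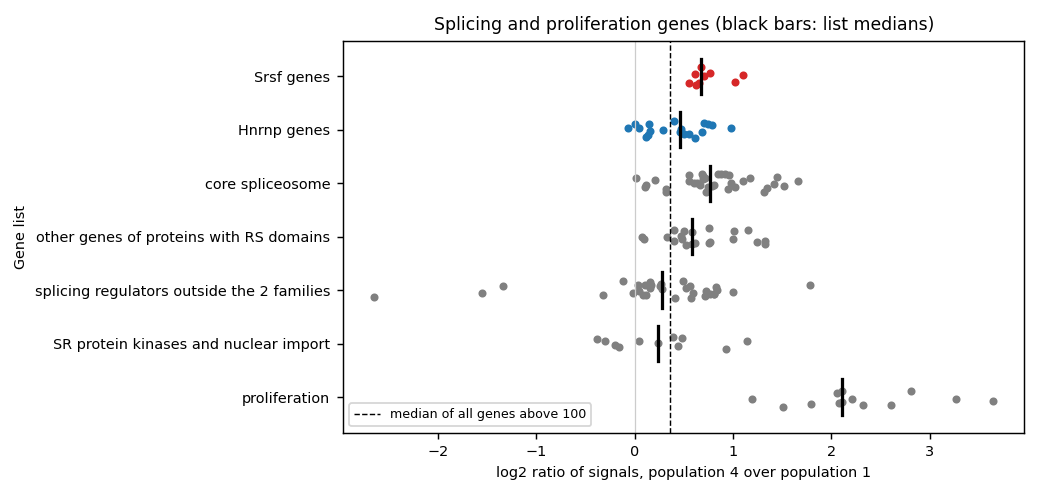
Log2 ratio of signals, population 4 over population 1, for the 9 Srsf and 19 Hnrnp genes and 5 other lists, with 1 point per gene, black bars for list medians and a dashed line for the median of all genes (0.36). The core spliceosome (0.77), the Srsf genes (0.68) and the other RS domain genes (0.58) lie to the right of the dashed line, and the proliferation genes (2.11) lie far beyond them.

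Promoters of the families were compared as a feature that the choice of genes did not use. RefSeq promoter sequence on GRCm38.p6, from 250 bases before to 50 bases after the transcription start, was found for 27 of the 29 genes and for 17491 protein-coding genes. The letters of a GC box, the site of Sp1-type factors (GGGCGG), were found on either strand in 22 of the 27, or 81.5%, against 49.2% of all promoters. Those of a CCAAT box (CCAAT) were found in 16, or 59.3%, against 42.3%, and those of a TATA box (TATAAA) in 4, or 14.8%, equal to the 14.8% of all promoters. An ETS core (CCGGAAG) was found in 5, or 18.5%, against 12.9%. The Runx motif was searched as TGTGGT, found in 3 promoters, or 11.1%, against 17.2%, and as TGCGGT, found in 4, or 14.8%, against 8.51%. No motif contains another, and a match is a run of letters only. Thus the GC box was the most frequent of the motifs in the families, as it was over all promoters. Shares over the promoters of genes with a signal above 100 are not given here. The following stretches of 30 bases, on the strand of the gene, show it and the CCAAT box, with the motif in capitals (CCGCCC and ATTGG are the motifs read on the opposite strand), for genes with a range of ratios.
Srsf6, GC box, chr2:162931473-162931502: ccgcgccgcgccCCGCCCccgggcacttat
Hnrnpa0, GC box, chr13:58128633-58128662: ctgcggcgcggtGGGCGGgaccaaggcgag
Hnrnph2, GC box, chrX:134601114-134601143: ctttaccttggcCCGCCCcatttccaaagg
Srsf3, CCAAT box, chr17:29032590-29032619: gcgccgcctctgATTGGgtgatctggtcag
Hnrnpab, CCAAT box, chr11:51606905-51606934: ggttcgctttgcCCAATgagagtatccgtt
Hnrnpr, CCAAT box, chr4:136310900-136310929: tctcgtgggccgATTGGtcggccgcacgga
Hnrnpa0 and Hnrnpab lie on the minus strand and the others on the plus strand. The motif began 23 bases before the start in Srsf6, 94 in Hnrnpa0 and 53 in Hnrnph2 for the GC box, and 58 in Srsf3, 41 in Hnrnpab and 30 in Hnrnpr for the CCAAT box. These genes had log2 ratios of population 4 over 1 from 0.12 (Hnrnpab) to 0.77 (Srsf3).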

How the data were processed

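The authors deposited probe set signals as linear intensity values of Affymetrix Mouse Genome 430 2.0 arrays, 1 for each of 4 sorted populations. Per the labels, MAS5 and GCOS 1.3 were used. The scaling between arrays, masking and detection calls are not given in the sources used here. Of the probe sets, 34958 had 1 gene symbol, 932 several and 9211 none, and only the first were named, with 34754 symbols updated through the gene ID to those of GRCm38.p6. Hnrnpa3 had only 4 probe sets shared with another gene and was left out, as were 3 shared probe sets of Hnrnpa1. A probe set of Srsf7 was not named. Signals below 100 were raised to 100 and log2 ratios taken between arrays, over genes above 100 in at least 1 population. With 1 array per population no test was made, and the number of arrays limits the precision. All genes with the symbol rule were named, and from each pathway list up to 4 genes with the largest ratio in either direction, a signal of at least 400 and all other probe sets above 100 going the same way. The members and lists were chosen with earlier results of these data known. Alternatives were other scalings (array median, quantile, hybridisation and poly-A controls), other probe set choices, signals raised to 50 or 200, and no signal minimum. Python 3.11.15, pandas 2.3.3, numpy 2.4.6 and matplotlib 3.10.9 were used, and the computation was tested on simulated data.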

Additional observations from a re-analysis of the deposited data

How the results depend on the processing

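No paired analysis was possible because each population had 1 array, and for the same reason no array could be left out. The scaling of the arrays moved most values. Centring on the array median gave Srsf and Hnrnp medians of 0.39 and 0.17 (population 4 over 1) and -0.19 and -0.25 (3 over 2). The counts were then 0 Srsf genes at least 2-fold and 2 at least 1.5-fold higher in population 4, 0 higher in population 3 than in 2 and 0 at every step. For Hnrnp genes they were 1 at least 1.5-fold higher, 11 higher in population 4 than in 1, 1 higher in 3 than in 2, 1 at every step and 7 highest in population 4. The shares of all genes were 14.4% (2-fold), 28.1% (1.5-fold), 54.3% (higher in 4 than in 1), 41% (higher in 3 than in 2), 8.40% (every step) and 45.3% (highest in 4). Quantile normalisation gave 0.43 and 0.16 (4 over 1) and -0.05 for Srsf genes (3 over 2), with 0 Srsf genes at least 2-fold and 2 at least 1.5-fold higher, 3 higher in population 3 than in 2 and 3 at every step, and with 1 Hnrnp gene at least 1.5-fold higher, 5 higher in 3 than in 2 and 2 at every step, beside 15.1% (2-fold), 29.2% (1.5-fold), 44.8% (higher in 3 than in 2) and 10.2% (every step) of all genes. Scaling on the hybridisation controls gave 1.02 and 0.79 (4 over 1) and 0.49 and 0.43 (3 over 2), with 5 Srsf and 5 Hnrnp genes at least 2-fold higher, 12 Hnrnp genes at least 1.5-fold higher, 19 higher in 3 than in 2 and 12 at every step, beside 34.6%, 52.6%, 90.6% and 29.6% of all genes. Scaling on the poly-A controls gave -0.29 and -0.35 (3 over 2), with 1 Srsf gene at least 2-fold higher and 0 Srsf and 0 Hnrnp genes higher in 3 than in 2 or at every step, beside 20.2%, 30.9% and 8.51% of all genes. These scalings also moved the median ratio of population 4 over 1 of all genes, from 0.36 to 0.10, 0.12, 0.65 and 0.30 in the same order, and the Srsf median stayed above it under each of them.

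The mean over probe sets gave 1 Hnrnp gene past 2-fold in favour of population 4, against 19.7% of all genes. It gave 1 past 1.5-fold in favour of population 1, against 15.5%. The latter was Hnrnpc, with a log2 ratio of population 4 over 1 of -0.91. Both Hnrnpc probe sets above the signal minimum were higher in population 4 (0.14 and 0.99). Its remaining probe set lay below the minimum in every population, with signals of 23.3 in population 1 and 1.6 in population 4. The negative mean of Hnrnpc thus rested on signals below the minimum. Leaving out probe sets shared between transcripts gave 2 Hnrnp genes at least 2-fold higher, against 22.3% of all genes. It gave 5 of 7 Srsf genes at least 1.5-fold higher, against 39.4%. It also turned Srsf3 to -0.22 and Hnrnpdl to -0.35, since the brightest probe set left for each had lower signals in population 4. The other unshared probe set of each was higher in population 4, with log2 ratios of 1.81 for Srsf3 and 1.34 for Hnrnpdl. Hnrnph1 was positive with the mean over probe sets (0.28) and on the hybridisation controls (0.26). Raising signals to 50 or 200 could not move the 28 genes (lowest signal 380.5). Dropping the minimum moved no family median or count beyond 1.5 times. All-gene medians (4 over 1) became 0.43, 0.14 and 0.0. The medians of population 2 over 1 (0.13 to 0.40 for Srsf, 0.12 to 0.35 for Hnrnp genes) and of 4 over 3 (0.23 to 0.43 and 0.04 to 0.25) stayed above 0 under each alternative. At least 2-fold lower genes numbered 0 under each alternative. The counts at 1.5-fold and by sign, and the comparison with genes of high signal, were chosen after seeing the data.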
